A study of Mus musculus with 12 samples.

Results

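Mpo, Elane, Prtn3, Ctsg and Ms4a3 are genes of the primary (azurophil) granule stage of myeloid cells. They were taken by symbol from the deposited table of normalized counts, in which all 5 were found among 24454 genes, and all 5 passed the filter on low values (mean of 10 or more). They were read in Venus+ leukemic blasts that had been sorted from the spleen (SP) and bone marrow (BM) of diseased male NSG mice. The blasts came from fetal liver cells, either wild type (WT) or lacking the STAT3β isoform (Δβ), into which a retrovirus carried the leukemia fusion MLL-AF9. Every library of both genotypes therefore carries MLL-AF9 and the Venus reporter, and all hosts lacked lymphocytes of their own. Each genotype and organ has 3 libraries, 12 in all. The sources used here do not say how many transformed lines or hosts lie behind the 12 libraries, so the p-values below measure the spread between these libraries only.

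Primary granules are filled at the promyelocyte stage, before the granules that hold lactoferrin and gelatinase are made. Mpo encodes myeloperoxidase, a heme enzyme that makes hypochlorous acid from hydrogen peroxide and chloride. Elane (neutrophil elastase), Prtn3 (proteinase 3) and Ctsg (cathepsin G) encode serine proteases that are stored as active enzymes after cathepsin C, the product of Ctsc, has removed a short activation peptide. Ms4a3 encodes a membrane protein of the MS4A family whose transcript marks granulocyte-monocyte progenitors, and it is no granule enzyme. Transcription of these genes is known to depend on PU.1, C/EBP, Runx1 and Myb factors, and their mRNA falls as cells pass from promyelocytes to mature neutrophils.

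In RefSeq's annotation of GRCm38.p6, Mpo (NM_010824, gene ID 17523) lies on the plus strand at chr11:87793784-87804412, and the distance to Stat3 on the same chromosome is 13.1 Mb. Prtn3 (NM_011178, gene ID 19152) at chr10:79879667-79883174 and Elane (NM_015779, gene ID 50701) at chr10:79886312-79888216 follow each other on the plus strand, with 3137 bases between them. Ctsg (NM_007800, gene ID 13035) lies on the minus strand at chr14:56099885-56102574, and Ms4a3 (NM_133246, gene ID 170813) on the minus strand at chr19:11629499-11640851.

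The 5 promoters are shown because the proteases varied together from library to library while ratios of Mpo to other members differed between the genotypes. Any part of the promoter sequences in either pattern was not tested. RefSeq's promoter windows for this build run from 250 bases before to 50 bases after each gene's start, on the gene's own strand, and all 5 genes had one. Capitals mark every match of GGAAGT, the core bound by ETS factors such as PU.1, or of its complement.
Mpo (chr11:87793534-87793833, plus strand): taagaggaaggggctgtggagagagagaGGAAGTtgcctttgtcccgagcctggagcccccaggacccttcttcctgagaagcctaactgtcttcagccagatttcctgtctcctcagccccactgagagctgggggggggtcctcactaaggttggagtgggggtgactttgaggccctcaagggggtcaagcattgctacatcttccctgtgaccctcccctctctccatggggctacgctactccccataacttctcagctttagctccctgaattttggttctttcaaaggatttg
Elane (chr10:79886062-79886361, plus strand): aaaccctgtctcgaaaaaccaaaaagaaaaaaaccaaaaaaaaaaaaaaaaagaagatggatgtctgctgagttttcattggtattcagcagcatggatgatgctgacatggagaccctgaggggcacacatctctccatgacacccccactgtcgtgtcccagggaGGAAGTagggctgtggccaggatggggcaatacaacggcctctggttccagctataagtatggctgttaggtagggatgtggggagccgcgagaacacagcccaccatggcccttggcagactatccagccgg
Prtn3 (chr10:79879417-79879716, plus strand): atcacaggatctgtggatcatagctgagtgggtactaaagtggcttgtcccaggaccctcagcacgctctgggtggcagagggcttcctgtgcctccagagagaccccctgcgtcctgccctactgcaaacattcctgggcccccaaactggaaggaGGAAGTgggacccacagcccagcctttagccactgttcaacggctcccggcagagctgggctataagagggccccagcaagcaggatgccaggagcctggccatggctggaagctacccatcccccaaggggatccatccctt
Ctsg (chr14:56102525-56102824, minus strand): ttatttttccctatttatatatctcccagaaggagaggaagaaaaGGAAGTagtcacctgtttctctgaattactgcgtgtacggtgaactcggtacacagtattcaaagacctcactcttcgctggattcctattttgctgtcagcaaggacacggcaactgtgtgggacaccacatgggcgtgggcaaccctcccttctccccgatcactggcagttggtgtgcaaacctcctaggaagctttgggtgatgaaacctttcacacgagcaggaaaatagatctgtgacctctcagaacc
Ms4a3 (chr19:11640802-11641101, minus strand): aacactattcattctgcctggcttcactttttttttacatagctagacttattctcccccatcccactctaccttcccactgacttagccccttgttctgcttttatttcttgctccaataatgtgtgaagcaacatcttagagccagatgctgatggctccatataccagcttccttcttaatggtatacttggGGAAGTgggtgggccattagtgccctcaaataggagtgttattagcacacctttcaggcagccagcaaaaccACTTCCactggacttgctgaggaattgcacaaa

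GGAAGT, searched on both strands, was found in 5 of 5 windows, against 23.8% of all 32851 mouse promoter windows. Counted from the gene's start as +1, the match begins at -222 in Mpo, -83 in Elane, -93 in Prtn3, -205 in Ctsg and -55 in Ms4a3, and Ms4a3 has another on the opposite strand at 18. The longer form GAGGAAGT, which contains GGAAGT and so overlaps it, was in 3 of 5 windows (Mpo, Elane and Prtn3), against 3.20% of all. The neighbours Elane and Prtn3 also share TATAA at -31 and -32. TATAA is in 24.9% of all windows, and of the other members only Ctsg holds it, on the opposite strand at -236. AACNG, a core form of the Myb site, was in 4 of 5 windows but also in 80.3% of all. TGTGGT, the Runx core, was in 1 of 5 (Ctsg) against 16.8% of all, and TTNNGNAA, a loose C/EBP form, in 1 of 5 (Ms4a3) against 40.7%. These motifs were chosen after the sequences had been seen, and a match is a run of letters, not a measured binding site.

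The libraries held 9001051 to 13859727 reads on genes. The sorted cells carried the myeloid markers: all 8 of Ptprc, Itgam, Spi1, Csf3r, Csf1r, Lyz2, Hoxa9 and Meis1 were detected in every group. Of 8 erythroid markers, 6, the globins among them, were under 3 reads in every library, and the 8 summed to 4.65 to 14.9 normalized counts. Basophil and mast cell markers summed to 99.3 to 198 normalized counts. Besides the mature neutrophil markers, whose sums are given further below, sums of 3 other marker lists differed between the genotypes without overlap in 1 organ. Among all single genes that passed the filter on low values, 7.92% lay above in Δβ without overlap in SP and 9.37% below. In BM these shares were 3.5% and 4.13%. The 6 lymphocyte markers summed to 281 to 394 in WT SP and 401 to 503 in Δβ SP. In BM these sums overlapped (223 to 440 and 369 to 563). The NK cell marker Ncr1 was under 3 reads in every library. Only 2 of the 6 passed the filter on low values, and in SP 1 of them was higher in Δβ and 1 lower. The 6 markers of endothelium and stroma summed to 1161 to 1224 in WT SP and 1579 to 2546 in Δβ SP. In BM these sums overlapped (797 to 1470 and 1211 to 2094). The endothelial receptor Kdr was under 3 reads in every library, and Cdh5 and Col3a1 were so in every Δβ library. Only 2 of the 6 passed the filter, and in SP 1 of them was higher in Δβ and 1 lower. The 8 tissue macrophage markers had sums of 6473 to 8958 in the WT libraries of BM and 4687 to 5899 in the Δβ ones. In SP these sums overlapped (3788 to 5670 and 3475 to 5091). In BM, 5 of the markers (C1qa, C1qb, C1qc, Spic and Cd5l) were under 3 reads in every library of both genotypes. Only 3 of the 8 passed the filter, and in BM 1 of them was higher in Δβ and 2 lower. The part of these sums in the genotype differences below was not tested. Stat3, counted over the whole gene, ranged from 2977 to 4430 normalized counts in the WT and 2674 to 3236 in the Δβ libraries of SP, and from 2714 to 3201 and 2349 to 3228 in those of BM. The count does not separate the α from the β isoform, so it checks no genotype label. WT SP replicate 3 stood apart from its group: its correlation with WT SP replicate 1 was the lowest of any replicate pair (0.902 on log2 values, against 0.930 or more for all other pairs, its own with replicate 2 at 0.947 among them), and leaving it out changes several results below, which are given with and without it. The ribosomal RNA precursor Rn45s took 0.725% to 2.48% of the reads in WT SP and 0.178% to 0.655% in the other groups, and its part in the results was not tested.

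By mean normalized count over the 12 libraries, a scale on which long transcripts count for more, Elane ranked 11, Mpo 15, Prtn3 30, Ctsg 236 and Ms4a3 1011 of the 24454 genes. Per kilobase of transcript the order was Elane, Prtn3, Mpo, Ctsg and Ms4a3, at means of 26268, 16345, 8584, 5498 and 2283 normalized counts per kb. In WT BM, the mean of Mpo lay below that of Ctsg on that scale (3396 ± 1738 against 5233 ± 1624, SD, n = 3), whereas in Δβ BM it lay above (11362 ± 3410 against 3896 ± 1635). WT BM replicate 1 went the other way, with Mpo at 5293 and Ctsg at 4986 per kb. The 5 genes together took 0.223% to 1.59% of a library's reads, with means for WT and Δβ of 0.699% ± 0.772 and 0.857% ± 0.272 in SP and of 0.462% ± 0.147 and 0.727% ± 0.242 in BM (SD, n = 3 each).

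Mpo was at 5947, 5256 and 40587 normalized counts in WT SP replicates 1 to 3 and at 53209, 25775 and 30744 in Δβ SP. In BM it was at 14555, 8288 and 5172 in WT and at 41895, 27630 and 24214 in Δβ. The Δβ libraries of BM all lay above the WT libraries, while in SP the third WT library lay within the Δβ range and the other WT libraries were the lowest of that organ. The group means ranked Δβ SP (36576 ± 14618), Δβ BM (31246 ± 9379), WT SP (17263 ± 20202) and WT BM (9338 ± 4779). Within each genotype the SP and BM values overlapped, so SP and BM did not differ beyond their spread.

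Elane, the most abundant of the proteases, was at 12215, 14208 and 72724 normalized counts in WT SP and at 37376, 24521 and 16851 in Δβ SP. In BM it was at 29590, 17525 and 15123 in WT and at 35492, 23437 and 11112 in Δβ. Its group means ranked WT SP (33049 ± 34374), Δβ SP (26249 ± 10371), Δβ BM (23347 ± 12190) and WT BM (20746 ± 7752, SD, n = 3 each), and neighbours in that order differed by less than their spread. No pair of groups compared was separated.

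Prtn3 was at 7272, 9690 and 38024 normalized counts in WT SP, against 24934, 18065 and 15353 in Δβ. In BM it was at 16060, 11550 and 10669 in WT and at 19939, 16923 and 12563 in Δβ. The means ranked Δβ SP (19450 ± 4938), WT SP (18329 ± 17100), Δβ BM (16475 ± 3708) and WT BM (12760 ± 2892). In both organs the genotypes overlapped, and outside WT SP the highest library of a group was at most 1.62-fold above its lowest, the narrowest spread of the 3 proteases.

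Ctsg was at 1721, 3826 and 17096 normalized counts in WT SP, against 7309, 5069 and 3646 in Δβ. The BM values were 4996, 6981 and 3754 in WT and 5289, 4327 and 2095 in Δβ. It was the only member whose mean was lower in Δβ BM (3904 ± 1638) than in WT BM (5244 ± 1628), by less than the spread within either group. In SP the means were 7548 ± 8336 in WT and 5341 ± 1847 in Δβ.

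Ms4a3 was at 848, 2112 and 5020 normalized counts in WT SP, against 2773, 2604 and 1977 in Δβ. The BM values were 751, 1978 and 2294 in WT and 3059, 2677 and 1572 in Δβ. The WT and Δβ means were 2660 ± 2140 and 2452 ± 419 in SP, and 1674 ± 815 and 2436 ± 772 in BM. Its lowest library was WT replicate 1 in each organ, and the genotypes overlapped in both.

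**Figure D1:**
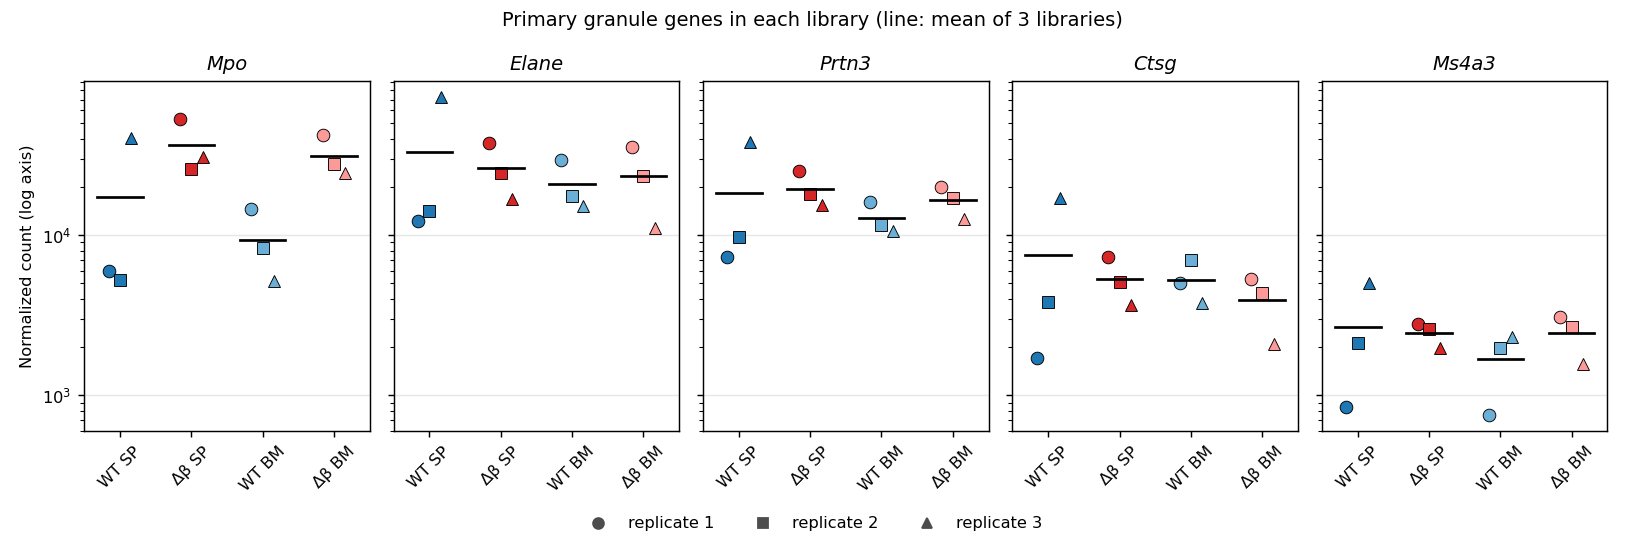
Normalized count (log axis) of each of the 5 genes in the 12 libraries, by genotype and organ. Symbols give the replicate number and lines the mean of 3 libraries. WT SP replicate 3 (triangle) is the highest library of all for Elane, Prtn3, Ctsg and Ms4a3, and in BM the Δβ libraries of Mpo all lie above the WT ones.

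WT SP replicate 3 held 7.25-fold more Mpo, 5.50-fold more Elane, 4.48-fold more Prtn3, 6.16-fold more Ctsg and 3.39-fold more Ms4a3 than the mean of the other WT SP libraries. It was the highest of all 12 libraries for Elane, Prtn3, Ctsg and Ms4a3, by 1.95-, 1.53-, 2.34- and 1.64-fold over the next, but not for Mpo, where it was at 0.763 of the highest Δβ library. The same library was the lowest of WT SP in the summed myeloid blast markers (41864 normalized counts, against 100823 and 138428) and in the summed mature neutrophil markers (60983, against 104019 and 154895). Lyz2, the lysozyme of macrophages and granulocytes and 1 of the blast markers summed, was at 10341 in that library and at 62148 and 42416 in the others. The part of these differences in the results was not tested.

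The genotype comparison asks whether loss of STAT3β was accompanied by another level of primary granule transcripts in leukemic blasts. None of the 5 genes passed the test in either organ (limma, Benjamini-Hochberg adjusted p under 0.05 over 11476 genes). That test called 0.105% of all genes in SP (12 genes) and 0.0697% in BM (8 genes). At an unadjusted p under 0.05, 1708 genes passed in SP and 297 in BM, Mpo among them in each. The edgeR quasi-likelihood test on recovered reads called 4 genes in SP and 8 in BM, DESeq2 called 457 and 37, and neither called a member.

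In SP the log2 fold change, Δβ minus WT, was 1.68 for Mpo (SE 0.69, limma adjusted p = 0.303), which put it at place 125 of the 11476 tested genes from the top. It was 0.46 for Prtn3 (SE 0.50, adjusted p = 0.654), 0.22 for Ms4a3 (SE 0.58), 0.10 for Elane (SE 0.65) and 0.09 for Ctsg (SE 0.68). In BM it was 1.83 for Mpo (SE 0.69, limma adjusted p = 1, unadjusted p = 0.0223), at place 64 of all genes. The other values in BM were 0.64 for Ms4a3 (SE 0.58), 0.37 for Prtn3 (SE 0.50), 0.08 for Elane (SE 0.65) and -0.48 for Ctsg (SE 0.68). Thus 5 of 5 values were above 0 in SP and 4 of 5 in BM, with medians of 0.22 and 0.37 beside medians of -0.01 and -0.02 over all tested genes. On the recovered reads, the count model of DESeq2 gave 1.09 for Mpo in SP (DESeq2, SE 0.80, adjusted p = 0.468) and turned Elane, Ctsg and Ms4a3 below 0 there (-0.32, -0.49 and -0.10). All differences but those of Mpo were smaller than their standard error or close to it. In BM the Mpo libraries of the genotypes did not overlap, which was so, with Δβ above WT, for 3.5% of all tested genes. None of the 5 separated the genotypes in SP, where 7.92% of genes did with Δβ above. The exact permutation test of Mpo (two-sided) gave p = 0.1 in BM, the smallest that 3 libraries against 3 allow, and p = 0.3 in SP.

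The WT SP group carried most of the uncertainty in SP. Without WT SP replicate 3, Mpo was 6.22-fold higher in Δβ SP (log2 fold change 2.64, SE 0.43, limma adjusted p = 0.00924) and Prtn3 2.27-fold higher (1.18, SE 0.27, adjusted p = 0.0217). Elane (0.92, adjusted p = 0.201), Ctsg (0.999, adjusted p = 0.155) and Ms4a3 (0.86, adjusted p = 0.249) did not pass. This fit called 16.4% of all tested genes (1884 genes, 539 higher and 1345 lower), so 2 of 5 members stand beside a much larger background, and the lone pair of WT SP libraries was assumed to vary like the other groups. For the pathway lists below, this alternative was added after the data had been seen.

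**Figure D2:**
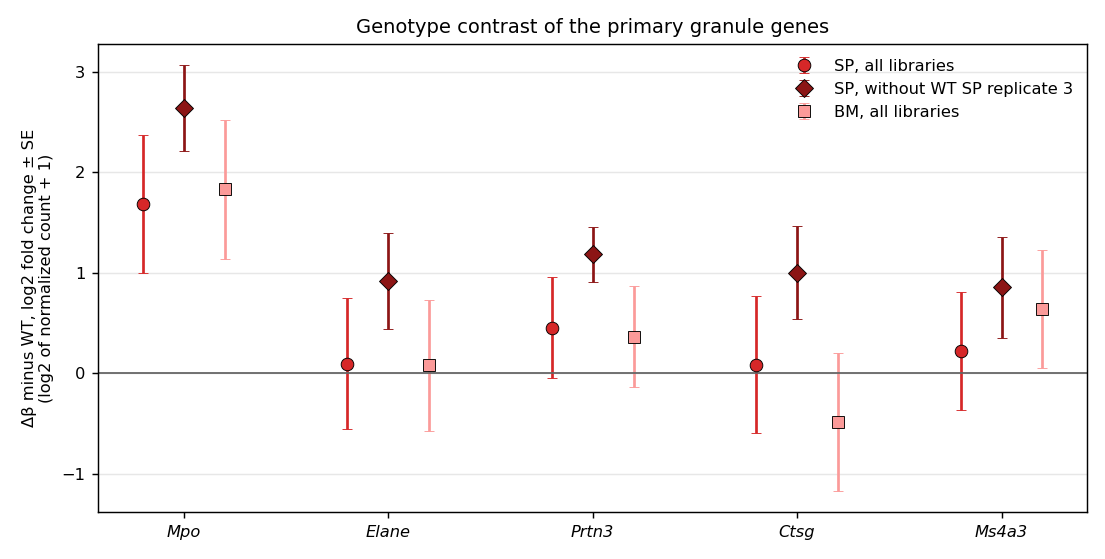
Log2 fold change, Δβ minus WT, of the 5 genes with its standard error, in SP with all libraries, in SP without WT SP replicate 3, and in BM. Mpo has the highest value in each series (1.68, 2.64 and 1.83), and the error bars of Elane, Prtn3, Ctsg and Ms4a3 include or come close to 0 where all libraries are used.

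The genotype effect did not differ detectably between the organs. Its difference, SP minus BM, was -0.14 for Mpo (SE 0.97), 0.02 for Elane (SE 0.92), 0.09 for Prtn3 (SE 0.71), 0.57 for Ctsg (SE 0.97) and -0.42 for Ms4a3 (SE 0.82), and 0% of all genes were called (0 genes, with 367 at an unadjusted p under 0.05). DESeq2 called 3 genes there and the edgeR test 0. The Mpo effect itself (1.68 in SP and 1.83 in BM) is less than 2 such standard errors.

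Between organs the 5 genes differed little. SP minus BM in Δβ was 0.20 for Mpo, 0.25 for Elane, 0.24 for Prtn3, 0.50 for Ctsg and 0.05 for Ms4a3 (SE 0.50 to 0.69, without pairing by number). In WT it was 0.34, 0.23, 0.15, -0.07 and 0.47 in the same order. In each genotype the SP and BM libraries of all 5 overlapped. Of all tested genes, 5.66% had every SP library above every BM library in WT and 5.8% the reverse, and 2.92% and 4.51% did in Δβ. None of the 5 was called, and limma called 0% of all genes in each genotype (0 genes, with 949 at an unadjusted p under 0.05 in WT and 203 in Δβ), where DESeq2 called 111 and 2. Without WT SP replicate 3 all 5 WT values were below 0 (-0.61, -0.59, -0.58, -0.98 and -0.17), of which that of Ctsg had been so with all libraries, and none of the 5 passed, with 5.21% of all genes called. Leaving out WT BM replicate 3 also put Mpo below 0 (-0.021), leaving out WT BM replicate 1 did so for Ms4a3 (-0.035), and Ctsg was above 0 without WT SP replicate 1, WT SP replicate 2 or WT BM replicate 2 (0.67, 0.095 and 0.16). The WT direction between organs thus turned with single libraries.

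The levels of the members relative to each other were compared after the values had been seen, and 4 of the 10 ratios in each organ separated the genotypes. In WT, the log2 ratio of Mpo to Elane was -1.04, -1.43 and -0.84 in SP and -1.02, -1.08 and -1.55 in BM. In Δβ it was 0.51, 0.07 and 0.87 in SP and 0.24, 0.24 and 1.12 in BM. All 6 Δβ libraries lay above all 6 WT libraries, WT SP replicate 3 included. These ratios are of counts not divided by length, so the sign of a ratio does not say which gene was higher: the transcripts are 2750 bases (Mpo) and 984 bases (Elane) long, and per kilobase Mpo lay below Elane in every library.

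Relative to Elane, Mpo was thus 3.01-fold higher in Δβ SP than in WT SP (a log2 difference of 1.59, between 0.48 ± 0.40 and -1.10 ± 0.30, SD, n = 3 each) and 3.37-fold higher in Δβ BM (1.75). Of all tested genes, 0.819% had a ratio to Elane that was higher in every Δβ library of SP, 0.662% in BM and 0.366% in both organs (42 of 11475 genes). The exact permutation p was 0.1 in each organ, the smallest possible for 3 libraries against 3.

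Relative to Prtn3, Mpo was 2.34-fold higher in Δβ SP and 2.76-fold higher in Δβ BM, with no overlap in either organ, beside 0.584% and 0.401% of all genes and 0.183% for both organs at once. The log2 ratio of Mpo to Prtn3 lay between -1.04 and 0.09 in the 6 WT libraries and between 0.51 and 1.09 in the 6 Δβ libraries. Relative to Ctsg it was 3.03-fold higher in SP and 4.97-fold higher in BM, again without overlap, beside 0.784% and 4.1% of all genes and 0.331% for both. Relative to Ms4a3 it was 2.76-fold higher in SP without overlap, beside 0.967% of all genes, and 2.28-fold higher in BM, where WT replicate 1 held the highest ratio of that organ (4.28 on the log2 scale) and the groups overlapped. A ratio to Ms4a3 higher in every Δβ library was found for 0.2% of genes in BM and 0.131% in both organs.

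Of the 10 pairs among the 5 genes, 4 separated the genotypes in SP, all of them pairs with Mpo, and 4 in BM, of which 3 were pairs with Mpo and the fourth was Prtn3 to Ctsg (1.80-fold higher in Δβ, beside 4.1% of all genes relative to Ctsg). The ratio of Elane to Ctsg differed by 0.01 in SP on the log2 scale, and that of Elane to Prtn3 by -0.36 in SP and -0.29 in BM, all overlapping. Between organs no pair separated in WT. In Δβ, Elane to Ctsg (-0.25) and Ctsg to Ms4a3 (0.45) did, beside 3.7% of all genes with a ratio to Ctsg lower in every SP library and 1.01% with a ratio to Ms4a3 higher in every SP library (0.131% and 0.793% had the reverse).

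When the mean log2 value of Elane, Prtn3, Ctsg and Ms4a3 in each library entered the fit as a covariate, Mpo was 1.46 higher in Δβ SP (SE 0.40, limma adjusted p = 0.170, unadjusted p = 0.00429) and 1.67 higher in Δβ BM (SE 0.40, adjusted p = 0.499, unadjusted p = 0.00176). Its standard error fell from 0.69 to 0.40, and it still did not pass over all genes. The covariate fit was added after the ratios had been seen and rests on the same values, so it is no separate evidence for Mpo. It called 0.0697% of genes in SP and 0.0872% in BM. Within Δβ, a SP library deviated in the same way as the BM library with its number, so the organs are not independent evidence there.

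**Figure D3:**
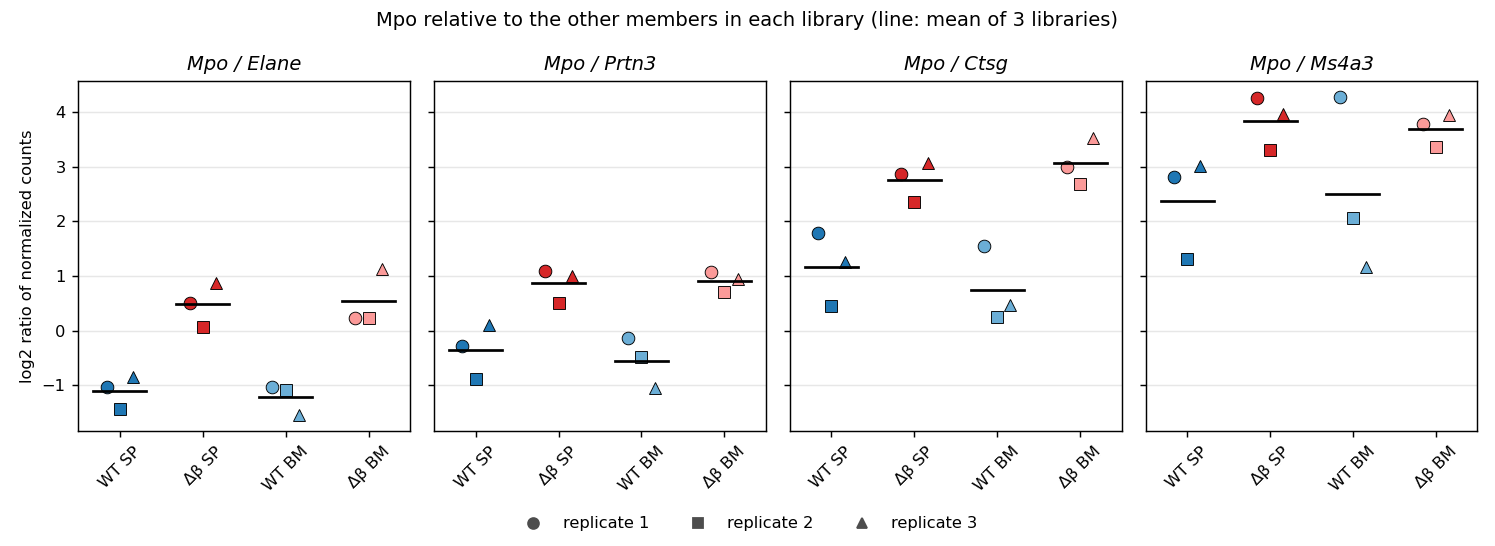
Log2 ratio of the normalized counts of Mpo to those of Elane, Prtn3, Ctsg and Ms4a3 in each of the 12 libraries, by genotype and organ. Symbols give the replicate number and lines the mean of 3 libraries. The ratio to Elane lies between -1.55 and -0.84 in WT and between 0.07 and 1.12 in Δβ, and only the ratio to Ms4a3 in BM overlaps between genotypes.

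Across the 12 libraries the proteases varied together. Pearson's r of log2 values was 0.923 between Elane and Prtn3, which are genomic neighbours, 0.881 between Elane and Ctsg, 0.825 between Prtn3 and Ctsg and 0.847 between Mpo and Prtn3, but 0.662 between Mpo and Elane and 0.457 between Mpo and Ctsg. With the group means removed, Mpo followed Elane and Prtn3 at 0.918 and 0.946, whereas Mpo and Ms4a3 reached 0.430. WT SP replicate 3 weighs on these values. Without it, and with group means kept, r was 0.653 between Mpo and Elane, 0.775 between Elane and Ctsg and 0.864 between Elane and Prtn3. It was 0.685 between Prtn3 and Ctsg and 0.359 between Mpo and Ctsg, and it rose to 0.895 between Mpo and Prtn3. The points share 1 size factor per library and fall in 4 groups, so the correlations are a description.

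The genes closest to the mean pattern of the 5 (their centred log2 values averaged in each library) were Med12, a Mediator subunit, at r = 0.928, Stk16 at 0.926, Krtcap2, a subunit of the oligosaccharyltransferase, at 0.925, Plppr3 at 0.922, Clec11a, a secreted growth factor of the marrow, at 0.913, the asparagine synthetase Asns at 0.901, the long noncoding RNA Crnde at 0.901 and Stt3a, the catalytic subunit of the oligosaccharyltransferase, at 0.898, over 12 libraries. Without WT SP replicate 3 these ran from 0.836 (Crnde) to 0.948 (Krtcap2). Has2, which makes hyaluronan, ran most strongly against the pattern at -0.929, followed by Tob2 at -0.910, 2310015A10Rik at -0.906 and Strn3 at -0.904. With group means removed, the highest were Abcd3 at 0.977, Crnde at 0.976, Med12 at 0.971, Tshr at 0.965 and Adhfe1 at 0.960. These were not recomputed without WT SP replicate 3. With group means kept, r without that library was 0.880, 0.836, 0.897, 0.805 and 0.649 in the same order.

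Next to the members on the chromosome, no tested gene within 100 kb was called in either organ. Plppr3, with 4709 bases between it and Prtn3, is also among the 8 genes most like the 5 in pattern, but its genotype difference was 0.30 in SP (SE 0.35) and 0.00 in BM. Cfd, the complement factor D protease on the other side of Elane, was at a mean of 9.0 normalized counts and was not tested. Around Prtn3, 13 tested neighbours, Elane among them, ranged from -0.78 to 0.53 in SP and from -0.25 to 0.59 in BM. Bzrap1, the gene before Mpo, was at 0.86 in SP (SE 0.41, limma adjusted p = 0.356) and 0.21 in BM. Mcpt8, next to Ctsg, was at 0.00 and -0.21, and Ms4a2, next to Ms4a3, at 0.26 and 0.06.

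The widest range was around Mpo, where 6 tested neighbours ran from -0.51 to 2.30 in SP and from -0.85 to 3.90 in BM. The upper ends belong to Epx, eosinophil peroxidase, a paralog of Mpo whose gene body lies 59585 bases from it. Epx was at 263 normalized counts in Δβ SP replicate 3 and at 520.0 in Δβ BM replicate 3, at 31.5 in Δβ BM replicate 2, and between 0 and 5.07 in the other 9 libraries. It was thus highest in the SP and BM libraries of the same Δβ number, in which Mpo was at 30744 and 24214, not its highest values. The WT libraries held only 0 to 5 reads of Epx, so its fitted log2 values depend on the pseudocount. Lpo, the lactoperoxidase gene on the other side of Mpo, averaged 3.3 normalized counts and was not tested.

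The wider granule program was read from lists chosen with earlier results of these data known. In the fit of all libraries none of their genes passed in any contrast, so each list is given by how many members lay above 0 and by its median, beside the median of all tested genes of -0.01 in SP and -0.02 in BM. The count of called genes without WT SP replicate 3 is given beside it, where 16.4% of all genes were called.

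Of the other primary granule cargo, 4 of 16 genes were above 0 in SP and 7 of 16 in BM, with medians of -0.26 and -0.05. Lyz2 was at 62148, 42416 and 10341 normalized counts in WT SP and 15153, 8602 and 8013 in Δβ SP (log2 fold change -1.57, SE 0.69, limma adjusted p = 0.324), and its log2 fold change was -0.64 in BM. Large values were also those of Lyz1 (-2.44 in SP and -2.02 in BM), a near copy that can share its reads, and Bpi, a bactericidal protein (-0.39 and -0.75). In the fit without WT SP replicate 3, 5 of the 16 were called lower, among them the lysozymes Lyz2 and Lyz1 and the lysosomal hydrolases Fuca1 and Arsa, and none higher. Prss57, a serine protease of the same granule, was at 0.18 in SP, 0.82 there without that library (limma adjusted p = 0.0587) and -0.16 in BM, beside 0.10, 0.92 and 0.08 for Elane. Prss57 was named for its role, after its values had been seen.

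The genes that activate, carry and sort the proteases had medians of -0.02 in SP and 0.03 in BM over 9 tested genes. Ctsc, which encodes the activating cathepsin C and was named for that role, was 0.05 in SP and 0.21 in BM (SE 0.59 each). The largest values were those of Lyst, a regulator of granule size (-0.61 and -0.53), Srgn, the proteoglycan serglycin on which the proteases are packed (-0.53 and -0.08), Ap3m1, a subunit of the AP-3 sorting complex (-0.43 and 0.02), and Ap3s1, another subunit (0.25 and 0.20). Ap3s1 was called higher and Lyst lower without WT SP replicate 3. The 8 genes of granule release were all below 0 in SP (median -0.32) and 3 of 8 above 0 in BM (median -0.04). Sytl1 (-0.66 and -0.53), Stx11 (-0.60 and -0.19), Unc13d (-0.46 and -0.07) and Snap23 (-0.36 and 0.06) had the largest values, and only Stx11, a syntaxin, was called without that library, as lower.

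Genes of heme synthesis and of Mpo folding were above 0 for 8 of 12 in SP (median 0.22) and 9 of 12 in BM (median 0.11). Calr, the chaperone calreticulin that binds the Mpo precursor, was at 0.55 in SP (SE 0.32, limma adjusted p = 0.419) and 0.11 in BM. Alad (0.45 and 0.34) and Cpox (0.44 and -0.05), both enzymes of heme synthesis, were next, and Slc25a38, the mitochondrial glycine carrier of that pathway, lay the other way (-0.93 and 0.01). Alas1 and Alad were called higher and Slc25a38 lower without WT SP replicate 3.

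Of the 14 protease inhibitors, 5 were tested, and their medians were -0.04 in SP and 0.72 in BM. Serpina3f, a clade A serpin, was at 3.4, 2.1 and 31.5 normalized counts in WT SP and 286, 355 and 31.0 in Δβ SP. In BM it was at 0, 0 and 1.0 in WT and 94.6, 67.8 and 4.1 in Δβ. Its Δβ libraries lay above the WT ones in BM, as did those of 3.5% of all tested genes. The WT libraries of BM held 0 or 1 read and Δβ BM replicate 3 held 4, so that separation lies near the floor. In SP the genotypes overlapped, and the third library of each held about 31. Serpina3g, from the same cluster of near copies, was 3.30 higher in SP (SE 1.13, limma adjusted p = 0.256) and 3.01 higher in BM, and reads may be shared between them. Serpinb6a, which can inhibit cathepsin G, was -0.99 and 0.12, and Slpi, the secreted inhibitor of elastase, -0.50 and 0.72. Serpinb1a, an inhibitor of all 3 proteases that was named for that role, was at -0.04 and -0.33. Serpina3f and Serpina3g were called higher and Serpinb6a lower without WT SP replicate 3.

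The transcription factors of the promyelocyte stage were above 0 for 4 of 10 in SP and 3 of 10 in BM (medians -0.19 and -0.09). Cebpa was -0.77 in SP (SE 0.21, limma adjusted p = 0.218) and -0.41 in BM, with the Δβ libraries below the WT ones in both organs. Spi1, which encodes PU.1, was -0.67 in SP, where the genotypes did not overlap, and -0.16 in BM. Such a separation, with Δβ below, held for 9.37% of all tested genes in SP and 4.13% in BM, and no share was taken for both organs at once. The genotypes also did not overlap for Klf4 in SP. Cbfb, named for this reason, was lower without overlap in both organs (-0.23 and -0.17). Klf4, a factor of monocytes, had the largest value (-1.93 and -0.90), from 3884, 2592 and 848 normalized counts in WT SP to 705, 485 and 451 in Δβ SP. Irf8 was at 0.71 and 0.03. Without WT SP replicate 3, 2 of the 10 were called higher (Myb and Gfi1) and 3 lower (Cebpb, Spi1 and Klf4).

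Genes of granulocyte-monocyte progenitors were above 0 for 5 of 15 in SP (median -0.26) and 6 of 15 in BM (median -0.04). The largest values were those of Trem3 (-1.20 and -0.66), F13a1 (-0.26 and -0.87), Hdc (-0.83 and -0.45) and Mgst1 (-0.55 and 0.03), and none was called without WT SP replicate 3 either. Late granule genes, made after the primary granules, were below 0 for 15 of 15 in SP (median -1.11) and 11 of 15 in BM (median -0.41). Retnlg (-3.71 and -1.90), Cd177 (-1.82 and -0.82), Ltf (lactoferrin, -1.39 and -0.56) and Ly6g (-1.27 and 0.02) had the largest values, with limma adjusted p from 0.241 to 0.464 in SP. Without that library, 6 of the 15 were called lower at a median of -1.55. The median of the late granule genes thus lay below 0 and the value of Mpo above 0 in both organs. The 7 mature neutrophil markers are no separate readout, since 6 of them are also in the late granule list: their sum was 60983 to 154895 normalized counts in WT and 44295 to 60703 in Δβ in SP, and 82651 to 198948 and 70111 to 106022 in BM. These sums of the genotypes did not overlap in SP, by a narrow margin, and overlapped in BM. None of the 7 markers was under 3 reads in all libraries of a group, and their part in the differences of the primary granule genes was not tested. In sorted bulk samples, fewer cells at a stage and less RNA per cell cannot be told apart.

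Of the 15 other members of the MS4A family in the table, 8 were tested, with 4 above 0 in SP (median 0.08) and 1 in BM (median -0.25). Ms4a4a (-2.05 and -1.34), Ms4a8a (-1.85 and -0.86), Ms4a6d (-0.65 and -0.34) and Ms4a6b (0.63 and -0.07) had the largest values, and near copies in this cluster may share reads. Of 15 related serine proteases and peroxidases, 5 were tested, with medians of 0.39 in SP and 0.27 in BM. Beside Epx they were led by Gzmb, granzyme B (0.75 and 0.94), Cma1 (0.39 and 0.23) and Mcpt4 (-0.03 and 0.27), all at means under 50 normalized counts in every group.

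**Figure D4:**
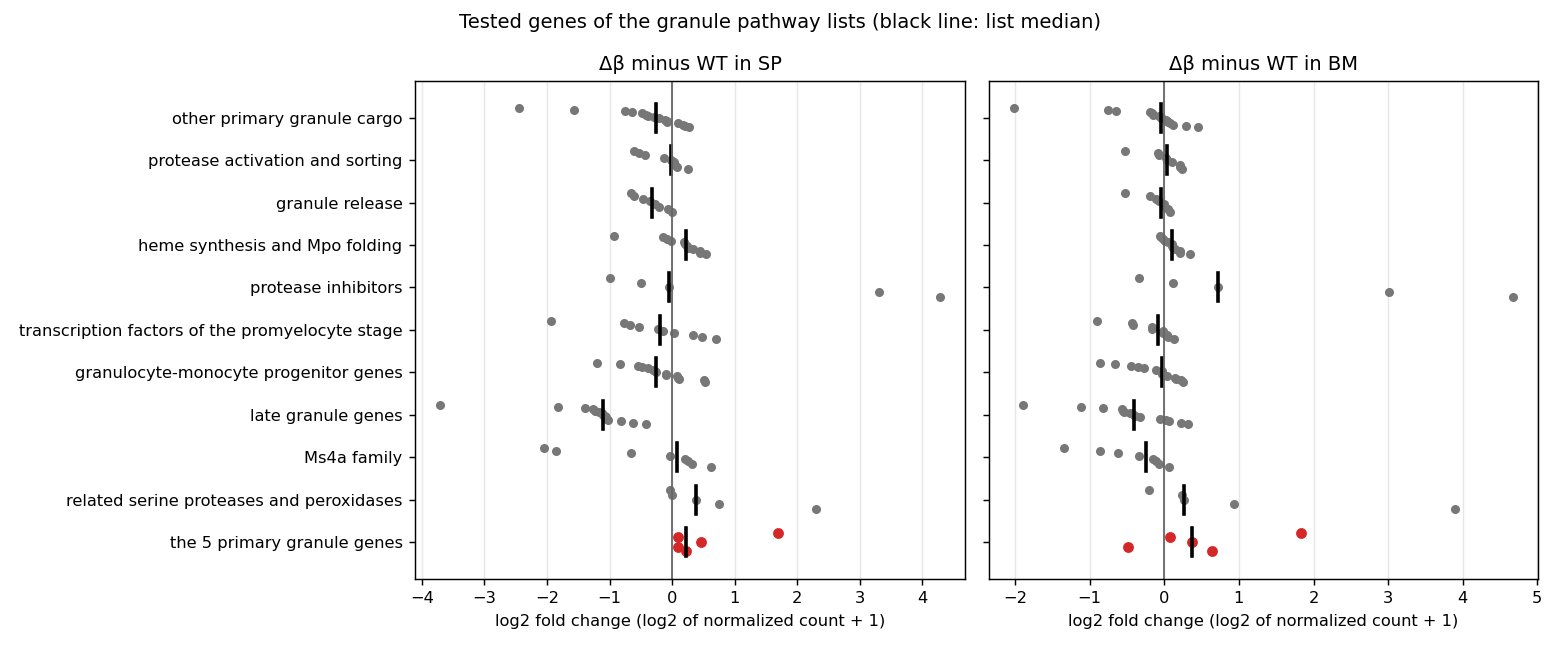
Log2 fold change, Δβ minus WT, of each tested gene of the 10 pathway lists (grey) and of the 5 primary granule genes (red), in SP and BM, with list medians as black lines. Mpo is the red point farthest to the right in both panels, and the late granule genes all lie below 0 in SP at a median of -1.11.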

How the data were processed

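Poly-A RNA of sorted Venus+ blasts was sequenced, with 3 libraries for each genotype and organ. The submitters' processing notes name FastQC, STAR, featureCounts and DESeq2, and the builds GRCm38 and mm10, without roles. Each deposited signal value is a gene's read count that the authors divided by 1 size factor per library: 1 read is worth 0.775 to 1.17, and 100% of values are whole reads within 0.01 of a read. Depth was 9001051 to 13859727 reads on genes. The header of the deposited table has 1 name fewer than its rows have cells, since the name of the last identifier column runs into that of the first value column, so names were assigned to columns from the right end. Another 6 columns of the table have no sample here and were not used.

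Genes with a mean of at least 10 (11476 of 24454) were fitted with limma 3.58.1 in R 4.3.3 on log2(value + 1), as 4 group means sharing 1 spread, with Benjamini-Hochberg adjustment and a threshold of 0.05. Fold changes are on that scale and understate those of low genes. edgeR 4.0.16 and DESeq2 1.42.0 were run on the recovered reads as alternatives. The fit was tested on simulated data. Ratios were compared with exact permutation tests. The model the authors used for these libraries is not given in the sources used here.

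The members, the pathway and marker lists and the tests were chosen with earlier results of these data known. Named were the 5 members, list genes that passed or otherwise up to 4 with the largest genotype differences, the 8 genes most like and the 4 least like the members, the 5 most like with group means removed, and the nearest neighbours; exceptions are stated, and some list genes are not reported here.

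Libraries of the same number were compared by the correlation of their deviations from the group means. In Δβ, SP and BM of the same number went together (0.664, 0.608 and 0.634), so the numbers pair them; in WT they did not (-0.0094, -0.039 and -0.237), nor did WT and Δβ (-0.166 to 0.202). Fits with the pairing are in the closing section.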

Additional observations from a re-analysis of the deposited data

How the results depend on the processing

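For Δβ minus WT in SP, 12 genes became 1 with a pseudocount of 0.25, 5 without the filter on low values, 2 at a minimum mean of 50, 3 with TMM rescaling, 3 without the variance trend, 4 with edgeR, 457 with DESeq2 and 2 in a fit of the 6 libraries of that organ. In BM, 8 became 37 with DESeq2, 3 in the fit of 6 libraries and 5 without the trend. Where limma called 0, DESeq2 called 3 for the difference between organs, 111 for SP minus BM in WT, 2 in Δβ and 37 over both genotypes, and the fit without a filter called 1 for the last. Leaving out 1 library at a time gave 1 to 1884 genes in SP, 1 to 6 in BM, 0 to 598 for SP minus BM in WT and 0 to 5 over both genotypes; 1884, 598 and 5 came without WT SP replicate 3. It gave 0 to 2 members called in SP. The causes were not tested.

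With the replicate block by number, 2 genes were called in SP and 5 in BM, and Mpo was at 1.68 and 1.83 (limma adjusted p = 0.292 and 0.9999). With genotype and number as the block, which takes up the Δβ pairing between organs, 0 genes were called for SP minus BM in Δβ, and Mpo stayed at 0.20. No block changed the call of a member.

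Mpo in the genotype contrasts kept its direction under every alternative run, from 1.09 (DESeq2) to 1.91 (quantile normalization) in SP with all libraries and from 1.67 to 1.84 in BM, and from 1.16 to 2.64 in SP and 1.47 to 2.21 in BM with 1 library left out. Some small differences of the members turned sign. In SP, edgeR and DESeq2 gave -0.32 and -0.32 for Elane, -0.49 and -0.49 for Ctsg and -0.10 and -0.10 for Ms4a3. In BM, quantile normalization gave -0.0043 for Elane. For the difference between organs, quantile normalization gave 0.13 for Mpo, and edgeR and DESeq2 gave -0.49 and -0.49 for Elane, -0.27 and -0.27 for Prtn3 and -0.065 and -0.060 for Ctsg. For SP minus BM in WT, quantile normalization gave -0.12 for Elane and -0.01 for Prtn3, and edgeR and DESeq2 gave 0.53 and 0.53 for Ctsg.

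Leaving out 1 library at a time turned the sign of these values, given as their lowest and highest log2 fold changes. For Δβ minus WT in SP they ran from -0.37 to 0.92 for Elane, -0.011 to 1.18 for Prtn3, -0.66 to 0.999 for Ctsg and -0.42 to 0.86 for Ms4a3. For Δβ minus WT in BM they ran from -0.30 to 0.54 for Elane. For the difference between organs they ran from -0.67 to 0.81 for Mpo, -0.45 to 0.84 for Elane, -0.38 to 0.82 for Prtn3, -0.17 to 1.48 for Ctsg and -1.06 to 0.22 for Ms4a3. For SP minus BM in WT they ran from -0.61 to 0.86 for Mpo, -0.59 to 0.69 for Elane, -0.58 to 0.61 for Prtn3, -0.98 to 0.67 for Ctsg and -0.17 to 1.11 for Ms4a3. For SP minus BM in Δβ they ran from -0.11 to 0.43 for Mpo, -0.21 to 0.63 for Elane and -0.24 to 0.24 for Ms4a3. For SP minus BM over both genotypes they ran from -0.21 to 0.53 for Mpo, -0.17 to 0.47 for Elane, -0.17 to 0.42 for Prtn3, -0.24 to 0.58 for Ctsg and -0.060 to 0.58 for Ms4a3.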
